A study of Mus musculus with 4 samples.

Results

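The *Msx2*/*Inhba* cells were mesenchymal cells of the E16.5 mouse penis in which genes of the distal glans were detected together. A cell was counted as a member where at least 3 of *Msx2*, *Inhba*, *Htr3b*, *Alx1*, *Osr1*, *Gfra2* and *Dkk1* had a UMI (unique molecular identifier, which marks 1 captured mRNA molecule) and at most 2 of *Tac1*, *Tfap2c*, *Col13a1*, *Fgf9*, *Adgrl3* and *Crym* did. The second list marks a neighbouring mesenchyme, called *Tac1*/*Tfap2c* cells here. The rule took 2892 cells out of the 33704 that had 1000 to 10000 UMIs and at most 25% of them from mitochondrial and at most 25% from hemoglobin genes. Cells that met the rule are called members. The 4 libraries held 47040 cell barcodes in all. Since the rule reads mRNA levels, the levels of its 13 genes describe the choice and are not results.

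The study asked what happens to the penis when *Nr5a1*-lineage cells are removed during urethra closure. Single-cell 3' mRNA libraries (10x Genomics) were made from DTA- embryos, which carried the *Rosa-LSL-DTA* allele without *Nr5a1-Cre*, and from DTA+ embryos, which carried *Nr5a1-Cre* and *Rosa-LSL-DTA*, with 2 libraries for each. In DTA+ mice the Cre removes a stop signal before the diphtheria toxin gene in cells that express or have expressed *Nr5a1*, so that these cells stop making protein and die. All 4 libraries came from E16.5 males and shared the floxed DTA allele, although the labels of the DTA- libraries also call them wild type. The methods describe a breeding scheme for the ablated mice that also brings in a *Rosa-LSL-tdTomato* allele, and *tdTomato* UMIs were found in the DTA+ libraries only. *Nr5a1* is expressed in the adrenal cortex and the testis as well, and the study describes embryos without adrenal glands and with small testes, so that loss of cells in the penis and loss of hormones from these glands cannot be told apart in the DTA+ libraries. The methods give n = 2 for the E16.5 penises that were dissociated, without saying whether this is per library or the number of replicates.

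MSX2, ALX1 and OSR1 are transcription factors. MSX proteins are typical of growing distal tips in limb and genital buds, where they act downstream of bone morphogenetic proteins (BMPs). *Inhba* encodes the subunit that pairs with itself to form activin A, *Dkk1* a secreted inhibitor of Wnt signalling, *Gfra2* the receptor for the nerve growth signal neurturin and *Htr3b* a subunit of a serotonin-gated ion channel. In the mouse the glans mesenchyme surrounds the urethra and the sensory nerve endings of the tip.

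*Msx2* (chr13:53466884-53473074, minus strand, GRCm38) and *Inhba* (chr13:16011851-16031621, plus strand) lie on the same chromosome. The 250 bases before the RefSeq start of *Inhba* and *Htr3b* are shown here because they hold TAATTG, the letters of an MSX binding site, in a cell type chosen by *Msx2*. Capitals mark TAATTG or, read on the other strand, CAATTA.
Inhba, chr13:16011601-16011850, plus strand, GRCm38.p6: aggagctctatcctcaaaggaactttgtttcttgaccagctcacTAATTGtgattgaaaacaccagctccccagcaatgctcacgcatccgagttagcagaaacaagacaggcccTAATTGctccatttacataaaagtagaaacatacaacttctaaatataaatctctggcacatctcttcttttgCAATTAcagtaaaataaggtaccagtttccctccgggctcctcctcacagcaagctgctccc
Htr3b, chr9:48964991-48965240, minus strand, GRCm38.p6: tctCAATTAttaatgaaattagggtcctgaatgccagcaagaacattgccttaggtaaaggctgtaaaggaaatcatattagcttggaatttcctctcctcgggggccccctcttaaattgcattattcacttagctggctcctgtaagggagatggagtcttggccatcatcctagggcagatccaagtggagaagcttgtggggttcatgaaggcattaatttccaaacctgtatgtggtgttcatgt
The *Inhba* window held 3 matches, which began 206, 135 and 62 bases before the start, and the *Htr3b* window held 1. Of the 7 required genes, *Inhba*, *Htr3b*, *Msx2* and *Dkk1* had an entry in the table of RefSeq promoters used here, and *Msx2* and *Dkk1* had no match in this window. Of all 32851 promoters in that table, 7.17% held at least 1 match and 0.0457% held 3 or more. A match of letters is a description of the sequence and does not show that MSX2 binds there.

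The libraries differed in how many cells met the rule. DTA- replicate 1 had 806 members, which were 10.6% of its kept cells (exact binomial 95% interval 9.92 to 11.3%), and DTA- replicate 2 had 465, or 5.51% (5.04 to 6.02%). DTA+ replicate 1 had 617 members, or 7.43% (6.88 to 8.02%), and DTA+ replicate 2 had 1004, or 10.7% (10.1 to 11.4%). These intervals cover counting error only. The DTA+ libraries fell within the range of the DTA- libraries or just above it, with a mean of 9.07 ± 2.32% against 8.06 ± 3.60% (SD, n = 2 each, exact two-sided permutation test p = 0.667). With 2 libraries against 2, this exact test cannot go below p = 0.333. The number of members per *Tac1*/*Tfap2c* cell was steadier, at 1.58 and 1.33 in DTA- and 1.57 and 1.35 in DTA+.

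Detection of a gene in a cell depends on depth, and the DTA- members were deeper. Their median was 4630 and 4160 UMIs per cell in the DTA- replicates and 3471 and 3395 in the DTA+ replicates. When every cell was thinned to 1000 UMIs before the rule was applied, 1.49 and 0.70% of the DTA- cells and 1.41 and 2.79% of the DTA+ cells still met it. Most members met the rule narrowly, since 1652 of them had exactly 3 of the required genes, 750 had 4, 365 had 5, 105 had 6 and 20 had all 7. A further 4147 kept cells had 2 of the required genes and met the limit on the second list, and 833 cells had at least 3 genes of both lists and were counted in neither group. The barcodes that any pair of libraries shared numbered between 31 and 48.

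As a description of the choice, *Inhba* and *Osr1* had the highest mean levels over the 4 libraries among the required genes, though not in each library. *Inhba* stood at 314 and 256 CPM (UMIs of the gene, scaled to the same total of UMIs in each library) in the DTA- libraries and at 421 and 481 CPM in the DTA+ libraries. *Osr1* ranged from 291 to 337 CPM, *Msx2* from 209 to 368 CPM, *Alx1* from 179 to 224 CPM and *Gfra2* from 175 to 272 CPM, whereas *Htr3b* averaged 58.3 CPM and *Dkk1* 95.7 CPM. An *Osr1* UMI was found in 73.7% of members on average, but a *Htr3b* UMI in only 21.1%. In 1091 endothelial cells and macrophages, which should lack these genes, a UMI of *Osr1* was found in 3.22% and of *Htr3b* in 0.749% of cells, at a median of 5005 UMIs per cell. The pair found together most often was *Msx2* and *Osr1*, in 1379 members, and the most frequent exact combination was *Msx2* with *Inhba* and *Osr1*, in 194. No single combination stood for the whole group.

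**Figure D1:**
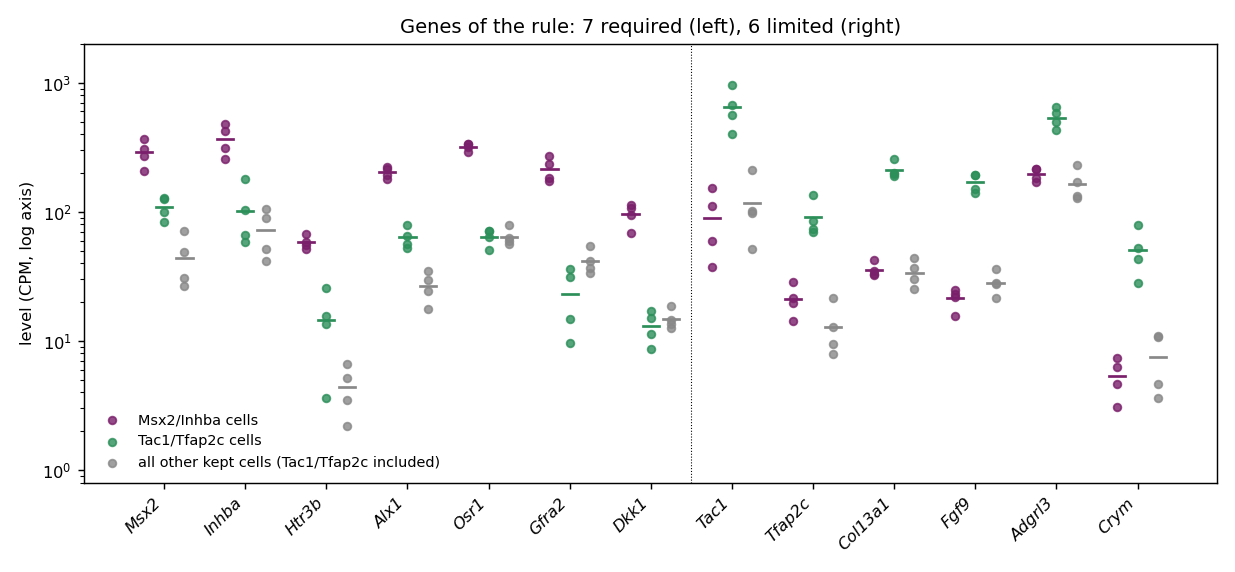
Level of the 13 genes of the rule (CPM, log axis) in *Msx2*/*Inhba* cells, *Tac1*/*Tfap2c* cells and all other kept cells; each point is 1 library and the bar is the mean of 4. The 7 required genes are higher in the *Msx2*/*Inhba* cells because the rule asks for them, for example *Htr3b* at a mean of 58.3 CPM against 4.37 CPM in all other cells.

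The genes outside the rule that were higher in members than in all other kept cells included homeobox genes, cadherins and axon guidance receptors. They are given as a description, because the same cells were chosen by their mRNA. *Msx1*, the paralogue of *Msx2*, averaged 361 ± 48.7 CPM in members (SD, n = 4) and 116 CPM in all other kept cells, and *Alx4*, a homeobox gene related to *Alx1*, 223 ± 57.5 CPM and 67.9 CPM. *Sox11*, a transcription factor of immature cells, averaged 1253 CPM against 584 CPM. The cadherins *Cdh10* (48.9 against 7.83 CPM) and *Cdh3* (58.5 against 15.8 CPM) were also among the leading genes. The axon guidance receptors *Epha5* (420 against 152 CPM) and *Unc5c* (159 against 53.3 CPM) were among the leading genes, as was *Nefl*, a neurofilament subunit (52.9 against 16 CPM). *Bambi*, a decoy receptor that dampens BMP signalling, averaged 234 against 95 CPM, and *Hhip*, a membrane protein that binds hedgehog ligands, 51.4 against 16 CPM. The posterior patterning gene *Hoxa13* stood at 123 against 56.6 CPM.

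The 10 genes that were lowest in members against the other cells included some of the extracellular matrix. *Dcn* and *Lum*, which encode small proteoglycans that bind collagen fibres, averaged 773 against 1637 CPM and 173 against 383 CPM. *Col3a1*, the chain of type III collagen, averaged 1826 against 3943 CPM, and *Col14a1* 166 against 400.1 CPM. The general mesenchymal marker *Col1a1* was found in 96.8% of members on average at 1999 CPM, and *Prrx1* in 80.8% at 623 CPM. A defining marker each of epithelium, endothelium, leukocytes and glia was near 0, while hemoglobin transcripts were not and are given with the genotypes. *Epcam* of epithelium averaged 2.57 CPM, *Cdh5* of endothelium 2.15 CPM, *Ptprc* of leukocytes 0.432 CPM and *Sox10* of glia 0.120 CPM. Over the 4 libraries the whole lists summed to 15.5 to 44.6 CPM for 11 epithelial, 14 to 55.8 CPM for 9 endothelial, 3.26 to 36.8 CPM for 10 macrophage and 11.8 to 19.7 CPM for 8 glial markers.

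The levels were also set out by the number of required genes detected. *Alx4* averaged 33.1 CPM in cells with none of the required genes, 98.5 CPM with 2, 189 CPM with 3 and 286 CPM with 5 or more. *Dcn* went the other way, from 1741 CPM with none to 1639 CPM with 2, 1036 CPM with 3 and 324 CPM with 5 or more. As these genes were chosen by their levels in members, the direction over these classes was largely set by the choice. *Col3a1* stood at 3999 CPM with none, 3984 CPM with 2, 2384 CPM with 3 and 778 CPM with 5 or more.

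**Figure D2:**
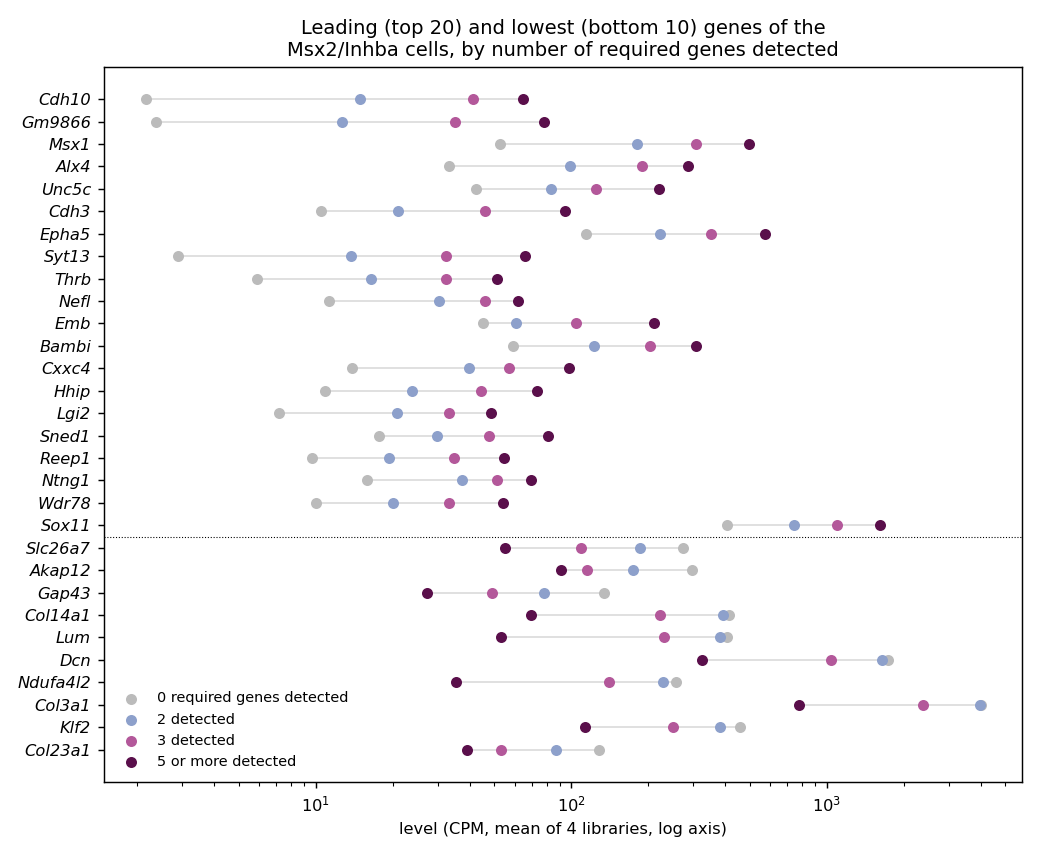
Level (CPM, mean of 4 libraries, log axis) of the 20 leading genes of the *Msx2*/*Inhba* cells and the 10 lowest, in kept cells with 0, 2, 3 or at least 5 of the required genes detected and at most 2 of the genes of the second list. *Alx4* goes from 33.1 to 286 CPM and *Dcn* from 1741 to 324 CPM over these 4 classes.

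Against the *Tac1*/*Tfap2c* cells, the members shared *Msx1* (361 against 288 CPM), *Alx4* (223 against 189 CPM), *Bambi* (234 against 225 CPM) and *Sox11* (1253 against 1194 CPM), at levels near those of the *Tac1*/*Tfap2c* cells. They had more *Igfbp5* (374 against 70.1 CPM) and *Igfbp2* (895 against 222 CPM), which encode binding proteins of insulin-like growth factors, more *Cxcl12*, a chemokine (146 against 30.1 CPM), and more *Nefl* (52.9 against 4.29 CPM). They had less *Nkd2* (47.7 against 241 CPM) and *Apcdd1* (124 against 403 CPM), both inhibitors of Wnt signalling, less *Pde4d*, a phosphodiesterase (72.8 against 406 CPM), and less *Shox2*, a homeobox gene (189 against 529 CPM).

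When the kept cells were clustered without the 13 genes of the rule, the members did not form 1 cluster. Cluster 8 held 1195 of them, or 41.3%, and 57.8% of its cells were members. It was led by *Pappa2*, *Gm9866*, *Grm7*, *Nefm* and *Sned1*. Cluster 3 held 16% of the members beside 802 *Tac1*/*Tfap2c* cells and was led by *9130024F11Rik*, *Alx4* and *Rgs6*. Cluster 4, led by the cell cycle genes *Top2a*, *Hist1h2ae* and *Cenpf*, held 8.92%, and cluster 6, led by *Hand2os1*, *Prss35* and *Dlx5*, held 7.33%. Clusters 7 and 0 held 4.25 and 4.08%, and cluster 14, led by *Nefl* and *Kera*, held 3.73%. The members thus had the homeobox genes *Msx1*, *Alx4* and *Hoxa13* and mesenchymal *Col1a1* and *Prrx1*, as the label of distal mesenchyme implies, but the rule gathered cells of several clusters. The share in cluster 8 was 36.8 and 31.6% in the DTA- libraries and 45.9 and 46.6% in the DTA+ libraries, and that in cluster 4 was 12 and 15.3% against 5.83 and 5.38%.

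**Figure D3:**
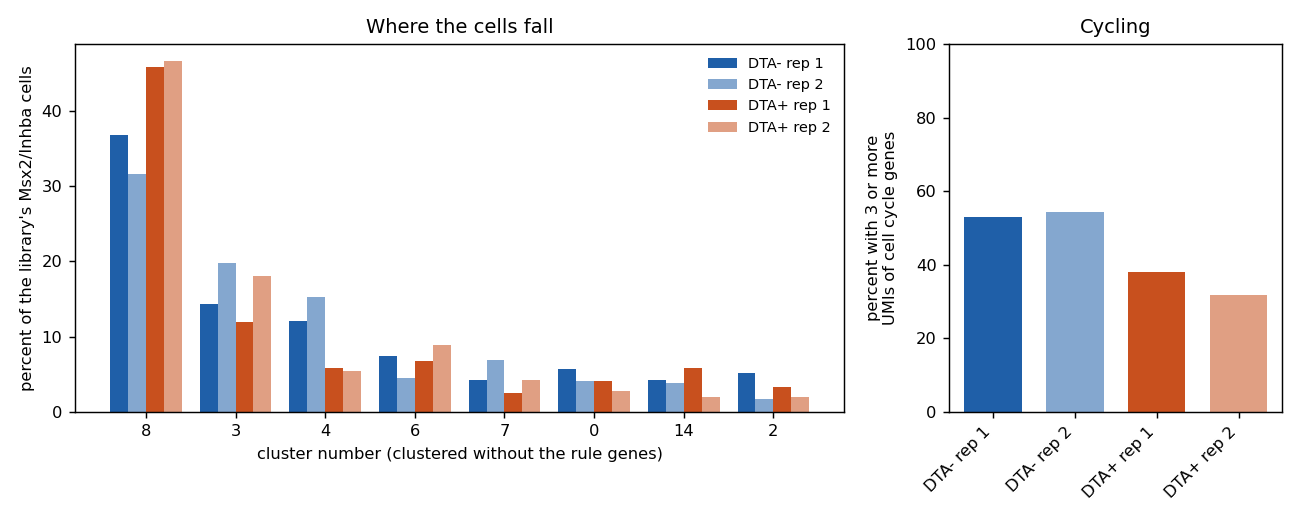
Left, percent of each library's *Msx2*/*Inhba* cells in the 8 clusters that held most of them; right, percent of them with 3 or more UMIs of cell cycle genes. Cluster 8 takes 31.6 to 46.6% in every library, and the cycling share is 52.9 and 54.2% in DTA- and 37.9 and 31.7% in DTA+.

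Gene expression in the members was then compared between DTA+ and DTA-. UMIs were summed over the members of each library, which gave 4161092 and 2172479 UMIs in DTA- and 2611377 and 4038928 in DTA+. Levels in the comparison are CPM scaled by edgeR's TMM factors. A gene is called changed where edgeR's quasi-likelihood test gave an adjusted p under 0.05. Of 11804 genes tested, 255 (2.16%) were called, 133 (1.13%) higher and 122 (1.03%) lower in DTA+. The 2 libraries of each genotype did not overlap in 47.3% of all genes tested, so that separation alone is not a result. The median log2 fold change (DTA+ over DTA-) of all genes was 0.005. Where a library was left out, its genotype had 1 library, which was assumed to vary like the 2 of the other genotype. The same test called 6.19% of genes in the *Tac1*/*Tfap2c* cells and 0.595% in all other kept cells. These fits differ in depth, so the shares were not compared. Of the 255 calls in members, 148 were also called in the *Tac1*/*Tfap2c* cells, all 148 in the same direction. Both kinds of cells came from the same libraries.

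Binding proteins of insulin-like growth factors (IGFs) and the proteins that control them changed in both directions. IGFs are carried by IGFBP proteins, the proteases PAPP-A and PAPP-A2 cut IGFBPs to free the IGF, stanniocalcins block these proteases, and growth hormone acts through its receptor GHR with SOCS2 as a brake. Of 16 genes of this axis tested, 4 rose and 4 fell (median log2 fold change 0.10), against 2.16% called among all genes. *Igfbp3* had 468 and 397 CPM in DTA- and 1233 and 1288 CPM in DTA+. It was the most abundant gene among the 12 named for the largest rises, with a log2 fold change of 1.54 ± 0.13 (SE, adjusted p = 0.00016). *Igfbp2* went the other way, with 1384 and 1199 CPM in DTA- and 501 and 532 CPM in DTA+ (log2 fold change -1.32 ± 0.13, adjusted p = 0.00027). For both genes the DTA+ libraries lay close together and far from the DTA- libraries, and the calls held under all 20 alternatives run. *Igfbp5* fell as well, from 431 and 548 CPM to 227 and 302 CPM (log2 fold change -0.88, adjusted p = 0.024), whereas *Igfbp4*, of a like abundance, stood at 738 and 679 CPM in DTA- and 743 and 737 CPM in DTA+. In all other kept cells together *Igfbp5* was also lower in DTA+, at 428 and 609 against 294 and 251 CPM (not TMM-scaled).

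The proteases and their inhibitor changed too. *Pappa2*, which also led cluster 8, had 76.8 and 124 CPM in DTA- and 30.3 and 13 CPM in DTA+ (log2 fold change -2.25 ± 0.32, adjusted p = 0.0056). *Pappa* rose from 9.60 and 20 CPM to 34.5 and 37.6 CPM (log2 fold change 1.39, adjusted p = 0.030). *Stc1*, a stanniocalcin, rose from 6.16 and 6.51 CPM to 36.0 and 35.6 CPM (log2 fold change 2.50 ± 0.24, adjusted p = 0.00027). The libraries of the 2 genotypes did not overlap for these 3 genes, as for 47.3% of all genes tested. *Ghr* rose from 76.6 and 64.2 CPM to 124 and 126 CPM (log2 fold change 0.82, adjusted p = 0.023), and *Socs2*, which growth hormone induces, fell from 34.2 and 51.2 CPM to 7.21 and 12.3 CPM (log2 fold change -2.04 ± 0.28, adjusted p = 0.0040). *Igf1*, the ligand, had 88.9 and 180 CPM in DTA- and 69.4 and 66.1 CPM in DTA+ and did not pass (adjusted p = 0.083), and *Igf2* had 222 and 264 CPM against 299 and 272 CPM (adjusted p = 0.44). In members of cluster 8 alone, 1 gene of the axis rose and 4 fell. *Pappa* was not called without DTA- replicate 1 (adjusted p = 0.12) or without DTA+ replicate 2 (0.069), *Ghr* not without either DTA+ replicate (0.065 and 0.095), and *Igfbp5* not without DTA+ replicate 1 (0.13).

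**Figure D4:**
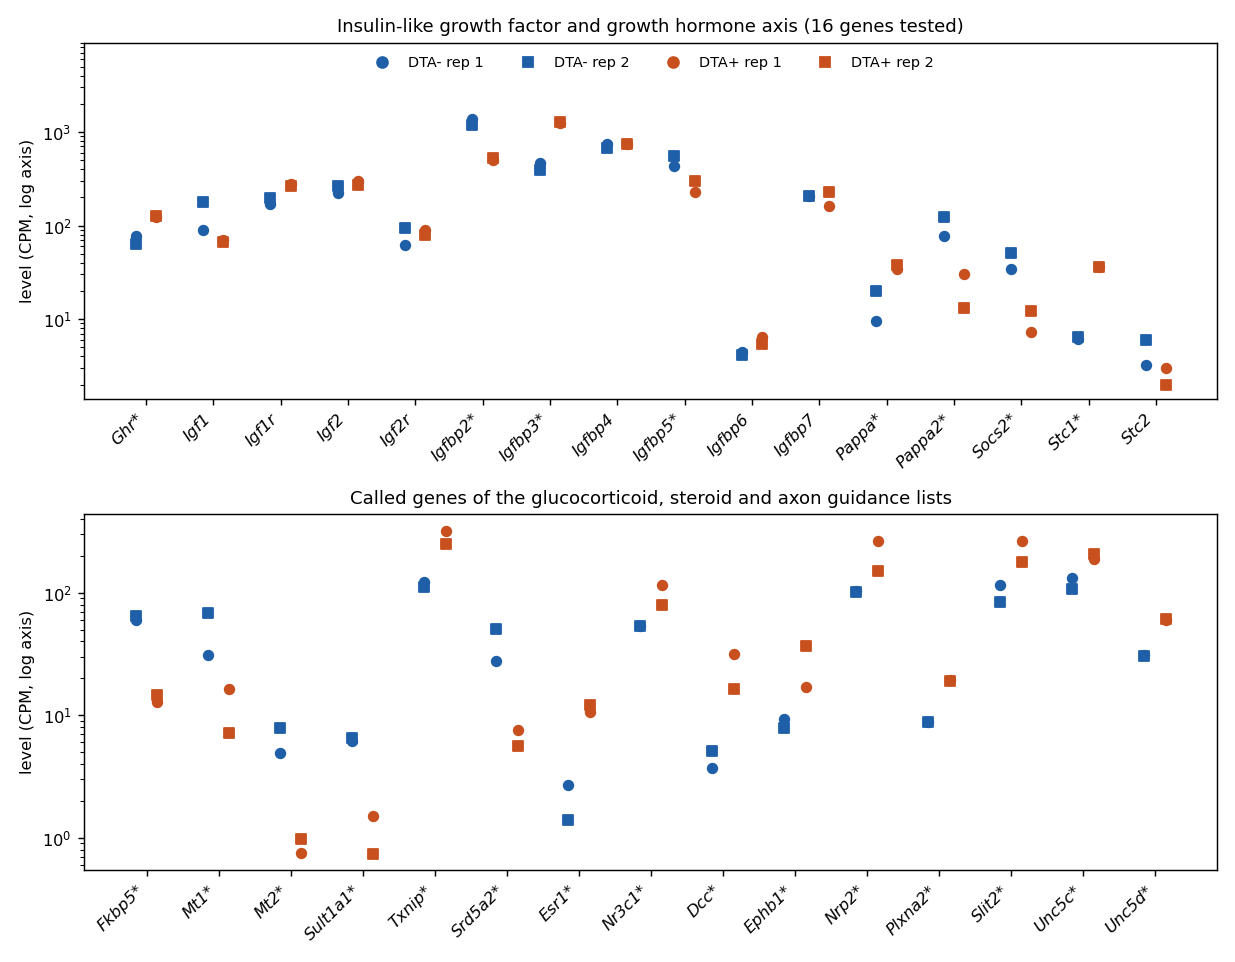
Level in *Msx2*/*Inhba* cells (CPM, log axis), 1 point per library, DTA- in blue and DTA+ in orange; an asterisk marks a gene called changed. The upper panel has the 16 genes of the IGF and growth hormone axis, of which 4 rose and 4 fell, and the lower panel the called genes of the lists of glucocorticoid-induced, steroid and axon guidance genes.

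Among genes that glucocorticoids induce, a few fell steeply while most did not pass the test. Of 21 tested, 4 fell and 1 rose, with a median log2 fold change of -0.17, against 1.03 and 1.13% of all genes. With DESeq2 1 of 24 tested fell, and with the same members thinned to 1000 UMIs 1 of 18. Without cells that held markers of another cell type 2 of 19 fell, and with the replicate number as a block 5 of 21. The median was -0.14 with DESeq2 and with the block, 0.07 after thinning and 0.04 without those cells. *Fkbp5*, a co-chaperone of the steroid receptors and a direct target of the glucocorticoid receptor in many tissues, had 59.8 and 65.1 CPM in DTA- and 12.9 and 14.7 CPM in DTA+ (log2 fold change -2.15 ± 0.19, adjusted p = 0.00023). *Mt1*, a metallothionein that binds zinc and copper, fell from 31.3 and 68.4 CPM to 16.3 and 7.13 CPM (log2 fold change -2.11 ± 0.40, adjusted p = 0.023). Its neighbour *Mt2* fell from 4.92 and 7.91 CPM to 0.759 and 0.983 CPM, and the sulfotransferase gene *Sult1a1* from 6.16 and 6.51 CPM to 1.52 and 0.737 CPM. *Txnip*, an inhibitor of thioredoxin, rose from 121 and 111 CPM to 322 and 248 CPM (log2 fold change 1.29 ± 0.16, adjusted p = 0.0018). *Fkbp5* was called in all 19 alternatives that tested it, whereas *Mt2* lost its call when any 1 library was left out, *Sult1a1* without any library but DTA+ replicate 1, and *Mt1* without DTA+ replicate 2 (adjusted p = 0.052).

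Of 8 tested genes for steroid receptors and steroid-converting enzymes, 2 rose and 1 fell, against 2.16% of all genes called. With at least 4 required genes in a member, 0 of 6 tested rose and 1 fell. With the same members thinned to 1000 UMIs, 0 of 5 rose and 1 fell. With the replicate number as a block, 3 of 8 rose and 1 fell. *Srd5a2*, the enzyme that turns testosterone into the stronger androgen dihydrotestosterone, had 27.8 and 50.2 CPM in DTA- and 7.59 and 5.65 CPM in DTA+ (log2 fold change -2.54 ± 0.32, adjusted p = 0.0024), and it was called in all 19 alternatives that tested it. The estrogen receptor gene *Esr1* rose from 2.71 and 1.40 CPM to 10.6 and 12 CPM (log2 fold change 2.34 ± 0.40, adjusted p = 0.014), at low counts of 11, 3, 28 and 49 UMIs. The glucocorticoid receptor gene *Nr3c1* rose from 53.7 and 53.5 CPM to 116 and 79.2 CPM (log2 fold change 0.85, adjusted p = 0.045). None of 11 tested genes linked to androgen action was called. *Esr1* was not called without DTA+ replicate 2 (adjusted p = 0.063) and *Nr3c1* not without DTA- replicate 1 (0.13) or DTA+ replicate 1 (0.38).

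Axon guidance genes that passed the test all rose. Of 35 tested, 7 rose and none fell, with a median log2 fold change of 0.20, against 1.13% of all genes called higher and 1.03% called lower. *Dcc*, the netrin receptor, rose from 3.69 and 5.12 CPM to 31.5 and 16.5 CPM (log2 fold change 2.45 ± 0.38, adjusted p = 0.0089). *Slit2*, a repellent ligand, rose from 115 and 84.2 CPM to 262 and 178 CPM (log2 fold change 1.12 ± 0.20, adjusted p = 0.019). The netrin receptors *Unc5c* and *Unc5d* had 132 and 108 against 188 and 208 CPM and 31.0 and 30.7 against 59.9 and 60.5 CPM. In all other kept cells together *Unc5c* also stood higher in DTA+, at 40.1 and 32.0 against 58.7 and 82.5 CPM (not TMM-scaled). *Ephb1*, *Nrp2* and *Plxna2*, receptors for ephrins and semaphorins, had log2 fold changes of 1.66, 1.01 and 1.12. *Gfra1*, the receptor for the nerve growth signal GDNF, rose from 21.7 and 22.3 CPM to 85.0 and 48.7 CPM (log2 fold change 1.58 ± 0.26, adjusted p = 0.011). The count of 7 was 1 without cycling cells, 2 in cluster 8 alone, and 3 without DTA- replicate 1 or without either DTA+ replicate.

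Of the activin and BMP genes, 1 ligand and 1 antagonist were called, against 2.16% of all genes. *Fst* encodes follistatin, which binds and blocks activin. It had 62.3 and 168 CPM in DTA- and 36.0 and 34.9 CPM in DTA+ (log2 fold change -1.66 ± 0.35, adjusted p = 0.035). The DTA- libraries stood far apart, and the DTA+ libraries lay below both. *Bmp6*, a ligand, fell from 8.86 and 12.1 CPM to 2.65 and 3.69 CPM (adjusted p = 0.048) and was not called when any 1 library was left out. No other gene passed among 15 ligands, 12 antagonists, 11 receptors and 12 targets tested. DESeq2 did not call *Fst* (adjusted p = 0.20), and without DTA- replicate 2 its log2 fold change was -0.82 (adjusted p = 0.015).

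*Inhba* itself could not be tested in cells chosen by it, so each rule gene was tested in cells that the other genes of the rule selected. In cells chosen without *Inhba*, its level was 281 and 193 CPM in DTA- and 351 and 458 CPM in DTA+ (log2 fold change 0.76 ± 0.18, adjusted p = 0.029, with 3.64% of the genes of that fit called). *Tac1*, which encodes the precursor of substance P, had 113 and 59.6 CPM against 152 and 242 CPM in cells chosen without it (log2 fold change 1.16 ± 0.25, adjusted p = 0.027, with 3.06% called). The other 11 genes of the rule were not called in their own fits, in which the share of all genes called was 0.694% for *Msx2*, 1.83% for *Htr3b*, 1.23% for *Alx1*, 1.82% for *Osr1*, 1.5% for *Gfra2*, 1.86% for *Dkk1*, 2.31% for *Tfap2c*, 2.12% for *Col13a1*, 2.02% for *Fgf9*, 2.81% for *Adgrl3* and 1.87% for *Crym*. *Msx2* had 262 and 191 CPM against 152 and 310 CPM, so that the genotypes overlapped, and *Gfra2* had 141 and 126 CPM against 178 and 221 CPM (adjusted p = 0.096). *Inhba* was not called without DTA- replicate 2 (adjusted p = 0.094) or without either DTA+ replicate (0.16 and 0.23), and *Tac1* not without either DTA+ replicate (0.68 and 0.59).

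None of 11 tested *Msx*, *Dlx*, *Alx* and related homeobox genes, 14 posterior *Hox* genes and 14 hedgehog pathway genes passed the test, against 2.16% called over all genes, so that these counts say little about the lists. *Msx1* had 432 and 319 CPM in DTA- and 327 and 376 CPM in DTA+, and *Alx4* 197 and 240 CPM against 164 and 295 CPM. *Hoxa13* had 118 and 99.5 CPM against 129 and 146 CPM (adjusted p = 0.30). The genotypes overlapped for *Msx1* and *Alx4* but not for *Hoxa13*, as for 47.3% of all genes. No gene passed either among 12 Wnt ligands, 15 receptors, 13 inhibitors, 11 targets and 12 Notch genes tested. Of 19 tested genes of a list of T-box, *Isl*, *Osr* and related factors, *Meis2*, a partner of HOX proteins, rose from 52.2 and 51.2 CPM to 142 and 83.3 CPM (log2 fold change 1.11, adjusted p = 0.031). Without DTA- replicate 1 or DTA+ replicate 1, *Meis2* was not called (adjusted p = 0.093 and 0.20).

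Few genes passed in other signalling lists, against 2.16% called over all genes. Of 18 tested FGF genes, *Fgf10*, a ligand made by mesenchyme, rose from 17.7 and 19.1 CPM to 44.4 and 29.7 CPM (log2 fold change 0.99, adjusted p = 0.049), and *Spry2*, a feedback inhibitor of FGF signalling, had a log2 fold change of 0.90 (adjusted p = 0.042). Of 14 retinoic acid genes, *Rdh10*, which makes retinaldehyde from vitamin A, rose from 19 and 24.7 CPM to 43.6 and 43.8 CPM (log2 fold change 1.03 ± 0.19, adjusted p = 0.023). *Fgf10* was not called without DTA- replicate 1 (adjusted p = 0.18), without DTA+ replicate 1 (0.34) or by DESeq2 (0.12), *Spry2* not without DTA- replicate 1 (0.086), without either DTA+ replicate (0.23 and 0.066) or by DESeq2 (0.14), and *Rdh10* not without DTA- replicate 1 (0.11), without DTA+ replicate 2 (0.069) or by DESeq2 (0.054). None was called among 6 EGF family genes, 4 genes of the serotonin system, 12 CCN and YAP genes, 17 hypoxia and glycolysis genes and 7 genes of a list for the *Nr5a1* lineage.

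Some genes of the extracellular matrix were higher in DTA+. Of 38 collagens and matrix proteins tested, 4 rose and none fell (median log2 fold change 0.05), against 1.13 and 1.03% of all genes. *Npnt*, nephronectin, an integrin ligand of basement membranes, rose from 72.1 and 67.0 CPM to 159 and 174 CPM (log2 fold change 1.25 ± 0.15, adjusted p = 0.0013). *Lum* rose from 92.8 and 103 CPM to 336 and 158 CPM (log2 fold change 1.33, adjusted p = 0.031), and *Aspn* and *Kera*, of the same proteoglycan family, had log2 fold changes of 0.78 and 1.29. *Lum* is also one of the 10 genes that were lowest in members against other cells. Its rise was not particular to members, since all other kept cells together had 243 and 278 CPM in DTA- and 616 and 397 CPM in DTA+ (not TMM-scaled). Of 18 tested matrix proteases and their inhibitors, *Adamts19* and *Mmp16* rose, and they lost their calls in 7 and 3 of 19 alternatives. *Lum* stood far higher in DTA+ replicate 1 than in replicate 2, and without replicate 1 its log2 fold change was 0.69 (adjusted p = 0.14). *Lum*, *Aspn* and *Kera* each lost their call in 7 alternatives, out of 19, 19 and 16 that tested them, and *Npnt* in 1 of 20. Of the collagens and matrix proteins, 1 rose and none fell without DTA- replicate 1 or without DTA+ replicate 1, and 1 rose and 1 fell without cycling cells or in cluster 8 alone.

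Some cell cycle genes fell in DTA+. Of 20 S phase genes 4 fell and 16 did not pass, and of 24 G2 and M phase genes 5 fell and 19 did not pass, against 1.03% of all genes that fell, with medians of -0.69 and -0.75 on the log2 scale and none that rose. *Rrm2*, which makes DNA precursors, fell from 42.6 and 49.8 CPM to 15.6 and 20.2 CPM (log2 fold change -1.33 ± 0.20, adjusted p = 0.0081). *Birc5*, survivin, fell from 125 and 132 CPM to 65.2 and 58.3 CPM (log2 fold change -1.06 ± 0.15, adjusted p = 0.0058). Beside these levels, 52.9 and 54.2% of the DTA- members and 37.9 and 31.7% of the DTA+ members had 3 or more UMIs of cell cycle genes. Over all kept cells, members included, this share was 49.7 and 45.1% in DTA- and 34.6 and 33.1% in DTA+. After thinning each cell to 1000 UMIs, 53.6 and 54.4% of the DTA- members and 43.6 and 44.7% of the DTA+ members had at least 1. The same measure in all other kept cells was 46.9 and 47.2% against 43.3 and 40.5%. Without DTA+ replicate 2, 1 gene of each list was called. Without a filter on low counts 9 S phase and 18 G2 and M phase genes fell, and with the replicate number as a block 7 and 15. With an upper limit of 7500 UMIs per cell 10 and 3 fell. The counts were 2 and 3 with DESeq2 and 1 and 2 with at most 1 gene of the second list. They were 1 and 1 with the same members thinned to 1000 UMIs.

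The cycling share was lower in both DTA+ libraries, at a mean of 34.8% against 53.5% in DTA- (exact two-sided permutation test p = 0.333, the lowest it can reach). The comparison was therefore repeated in members with fewer than 3 UMIs of cell cycle genes. This cut depends on depth and left out a larger share of the DTA- members. In the members that remained, 100 genes were called, 77 of them among the 255. *Igfbp2*, *Igfbp3*, *Fkbp5*, *Srd5a2*, *Socs2*, *Stc1* and *Pappa2* were still called with the same direction, whereas *Ghr* (log2 fold change 0.56, adjusted p = 0.17), *Esr1* (2.11, 0.13), *Lum* (0.62, 0.21) and *Dcc* (1.94, 0.081) were not. The change of *Lum* and *Ghr* was smaller than in all members, while that of *Esr1* and *Dcc* remained near 2 on the log2 scale. The members of cluster 8 alone gave 96 calls, 72 of them among the 255, and those outside it 201, with 160 among the 255.

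Of the other genes with the largest changes, *Nr4a2*, an orphan nuclear receptor, rose from 18.5 and 33.0 CPM to 105 and 86.3 CPM (log2 fold change 1.96 ± 0.24, adjusted p = 0.0017). It was the only one of 25 tested immediate early and stress genes to pass, against 2.16% of all genes. This count depended on the setting, with 17 higher without DTA- replicate 2, 11 higher with the replicate number as a block, and 9 higher and 1 lower without a filter on low counts. The summed level of that list was 7122 CPM in DTA- replicate 1, 16733 CPM in DTA- replicate 2 and 15937 and 13596 CPM in DTA+, so that 1 library stood apart, and without it *Nr4a2* had a log2 fold change of 1.52 (adjusted p = 0.0054). *Gucy1a1*, a subunit of the nitric oxide receptor guanylate cyclase, rose from 10.3 and 12.1 CPM to 41.0 and 29.7 CPM (log2 fold change 1.66, adjusted p = 0.0063), and *Pde3a*, a phosphodiesterase, had a log2 fold change of 1.42 (adjusted p = 0.041) but was not called without DTA- replicate 1 (0.84, adjusted p = 0.22) or without DTA+ replicate 1 (1.13, 0.11). *Selenop*, a selenium carrier, and *Cdh6*, a cadherin, had log2 fold changes of 1.35 and 1.34. *Tpd52l1* had the steepest fall of the 12 named, from 116 and 159 CPM to 18.6 and 26.5 CPM (log2 fold change -2.56 ± 0.22, adjusted p = 0.00016). *Mthfd2*, a mitochondrial enzyme of folate metabolism, fell by 1.93 on the log2 scale, *Ankrd29* by 1.68 and *Gm17167*, a leading gene of cluster 8, by 1.95.

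**Figure D5:**
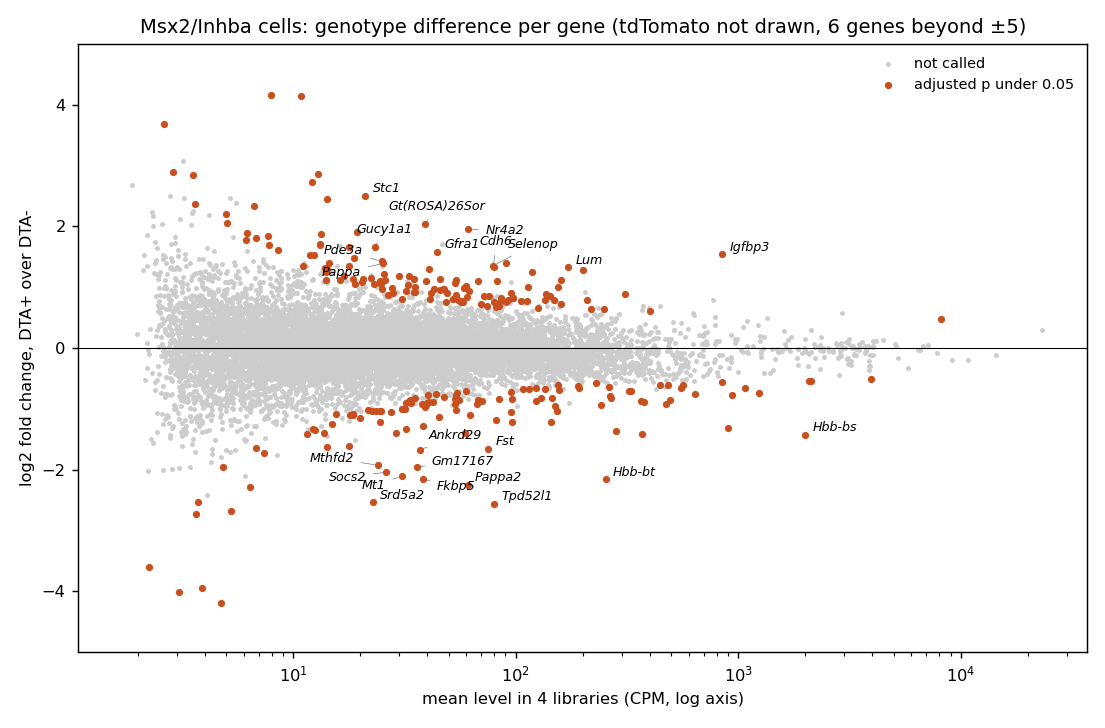
Log2 fold change (DTA+ over DTA-) in *Msx2*/*Inhba* cells against the mean level of 4 libraries (CPM, log axis), 1 point per gene tested; orange points are the called genes and named points are those the text names for the largest changes. *Igfbp3* stands apart at a mean of 847 CPM, while *tdTomato* is not drawn and 6 further genes lie beyond the axis.

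The *tdTomato* transcript had 0 UMIs in the members of both DTA- libraries and 348 and 264 UMIs in the DTA+ libraries, or 132 and 64.9 CPM. Against a floor of 3 counts over the DTA- group, it was at least 189-fold higher in DTA+. Over the whole libraries, *tdTomato* had 0 UMIs in both DTA- replicates and 3579 and 3140 UMIs in the DTA+ replicates. Whether the DTA- embryos carried the *tdTomato* allele was not tested, so this fold is not read as a change of expression. *tdTomato* was present in 26.1 and 20.8% of DTA+ members, at medians of 3471 and 3395 UMIs per cell. In endothelial cells the shares were 16.9 and 22.9%, at medians of 4556 and 5426 UMIs. The share in members was thus not set apart from that in another cell type, and whether free RNA accounts for it was not tested. The study's methods describe leaky *tdTomato* transcript, at a low background in most cells. They count only cells above a threshold as lineage-positive, so the shares here are not shares of *Nr5a1*-lineage cells. *Nr5a1* had 0 UMIs in the members of every library. *Gt(ROSA)26Sor*, the transcript of the locus that carries the transgenes, rose from 14.5 and 16.7 CPM to 52.0 and 73.3 CPM (log2 fold change 2.03 ± 0.22, adjusted p = 0.0010). Whether a difference in the alleles at this locus accounts for the rise was not tested. *Ddx3y* of the Y chromosome had 282, 190, 248 and 373 UMIs in the members of the 4 libraries.

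Hemoglobin transcripts and 1 of 3 tested macrophage markers also differed between the genotypes in these cells, against 2.16% called over all genes. The summed level of 10 erythroid markers was 4319 and 4352 CPM in DTA- and 1807 and 1277 CPM in DTA+. All 4 that could be tested fell, against 1.03% of all genes. *Hbb-bs*, the most abundant, fell from 2847 and 2988 CPM to 1254 and 917 CPM (log2 fold change -1.43 ± 0.14, adjusted p = 0.00037) and *Hbb-bt* by 2.16 on the log2 scale. The embryonic globins *Hba-x* and *Hbb-y* had 45.8 and 57.1 CPM in DTA- replicate 1 and 0 in the other libraries. The 10 macrophage markers summed to 13.5 and 3.26 CPM in DTA- and 36.8 and 23.8 CPM in DTA+, with *Ptprc* at 0.985 and 0 CPM and 0.759 and 0 CPM, and *C1qb*, at 0, 0, 8 and 16 UMIs, was called (at least 7.41-fold higher against 3 counts over the DTA- group). Its UMIs lay in 0.486 and 0.598% of the DTA+ members, and the *Tac1*/*Tfap2c* cells held 1 and 14 UMIs in DTA- and 5 and 2 in DTA+. The most abundant of the macrophage markers, *Fcer1g*, was not called. *Ccl3*, a chemokine gene not among these markers, was called, with 0 UMIs in DTA- and 10.6 CPM in the DTA+ group (at least 21.9-fold higher against 3 counts over the DTA- group). No gene passed among the tested markers of epithelium (6), endothelium (2), mast cells (3), glia (1), melanocytes (1), pericytes (5), smooth muscle (5), cartilage and corpus (7), periurethral mesenchyme (6) and prepuce (4). With 2.16% of all genes called, these counts say little about the lists. The part of blood or macrophage RNA in the other results was not tested. Cells that held 2 or more markers of another cell type made up 68 and 41.5% of the DTA- members and 43.8 and 18.7% of the DTA+ members. Without them 148 genes were called, 120 of them among the 255. Most of these cells met the filter through erythroid genes. With erythroid genes not used, the filter took 6.95 and 9.25% of the DTA- members and 6.48 and 3.49% of the DTA+ members. Without those cells 240 genes were called, of which 215 were among the 255.

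The genotype effect was tested for a difference between members and *Tac1*/*Tfap2c* cells of the same libraries. Of 11742 genes, 9 (0.0766%) were called, 2 (0.017%) with a more positive and 7 (0.0596%) with a more negative effect in members. *Igfbp2* was the most abundant. It fell in members (log2 fold change -1.32), while in *Tac1*/*Tfap2c* cells it had 232 and 250 CPM in DTA- and 165 and 247 CPM in DTA+ (log2 fold change -0.21, adjusted p = 0.53). The difference of the effects was -1.06 ± 0.15 (adjusted p = 0.0017). The fall of *Igfbp2* was not particular to the members, since all other kept cells together went from 1054 and 985 CPM (not TMM-scaled) in DTA- to 363 and 371 CPM in DTA+ (log2 fold change -1.55 ± 0.10, adjusted p = 0.0045 in their own edgeR fit). *Sox9*, a transcription factor of cartilage and urethral mesenchyme, had 41.4 and 39.1 CPM in DTA- members and 32.2 and 28.3 CPM in DTA+ members, against 19.5 and 12.2 CPM and 30.3 and 33.4 CPM in *Tac1*/*Tfap2c* cells (difference -1.36 ± 0.27, adjusted p = 0.043). *Rprm*, *Peg3* and *Lgals7* differed by -1.64, -0.88 and -0.88, and *Foxd2os* by 1.26. Neither these 4 genes nor *Sox9* (log2 fold change -0.42, adjusted p = 0.26) were called between the genotypes in members alone. In *Tac1*/*Tfap2c* cells, *Sox9* (0.97, adjusted p = 0.042) and *Peg3* (0.94, adjusted p = 0.0054) were called higher in DTA+. The remaining call with a positive difference, *Tac1*, is no result, because the rule used it to choose both kinds of cells. *Sst* and *Plac8*, named after their values were seen because they lie under 20 CPM, were the remaining 2 with a negative one. With at least 4 required genes in a member, edgeR's test called none, *Igfbp2* included (difference -0.92, adjusted p = 0.14), while 523 genes had an unadjusted p under 0.05. *Foxd2os*, *Peg3* and *Lgals7* were not called without DTA- replicate 2, nor *Sox9* without DTA+ replicate 2.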

How the data were processed

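The authors aligned 10x Genomics 3' libraries to mm10 with reporter sequences added. The processing notes name Cell Ranger 4.0.0 and the methods version 3. Each deposited matrix gives UMI counts by gene and barcode, neither normalized nor filtered after cell calling. No doublet caller was run. Kept cells were clustered without the rule genes in scanpy 1.11.5 (2000 variable genes, 30 components, resolution 0.8). Member counts were summed per library. Genotypes were compared with edgeR 4.0.16 in R 4.3.3 by its quasi-likelihood test on genes kept by filterByExpr, after TMM scaling, with Benjamini-Hochberg adjustment over all genes. The interaction used the library as block. A likelihood ratio test, DESeq2 1.42.0, other filters, thinning and other choices of cells were alternatives. The scripts were tested on simulated data.

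Genes named were the rule genes, the 12 largest rises and 12 largest falls among called genes of at least 20 CPM whose genotypes did not overlap, up to 5 per direction in the interaction, the 20 leading identity genes, and list members called or most abundant. Others serve as examples and were chosen after their values were seen. Members and lists were chosen with earlier results of these data known. The study's methods speak of biological replicates for the single-cell data, but the labels do not say whether these are separate litters. The p-values thus measure the spread between these libraries, which may be technical. Promoters came from RefSeq and gene positions from GENCODE.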

Additional observations from a re-analysis of the deposited data

Results flagged for a closer look

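The genotype effect differed between *Msx2*/*Inhba* cells and *Tac1*/*Tfap2c* cells, by the interaction test, for *Igfbp2* (-1.06 on the log2 scale), *Sox9* (-1.36), *Rprm* (-1.64), *Peg3* (-0.88), *Lgals7* (-0.88) and *Foxd2os* (1.26). *Peg3* had 368 and 451 CPM in DTA- members and 392 and 429 CPM in DTA+ members, against 328 and 263 CPM and 480 and 653 CPM in *Tac1*/*Tfap2c* cells. *Rprm* had 31.1 and 9.12 CPM in the DTA- and 29.7 and 96.6 CPM in the DTA+ *Tac1*/*Tfap2c* cells, so that 1 library of 4 stood far above the rest. Differences of -7.87 for *Sst* and -5.71 for *Plac8* rest on few counts, and their fitted size is no bound. *Sst*, the neuropeptide somatostatin, had 20 and 9 UMIs in DTA- members and 0 in both DTA+ libraries (at least 10.4-fold lower against 3 counts over the group), and *Plac8* had 46.2 CPM in the *Tac1*/*Tfap2c* cells of DTA+ replicate 1 and 1.06 CPM in those of DTA+ replicate 2. The cause of these differences was not tested.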

How the results depend on the processing

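The 255 calls between the genotypes became 597 with the likelihood ratio test, 791 without a filter on low counts, 134 with at least 4 required genes, 68 with the same members thinned to 1000 UMIs, 4 of 1931 tested with thinning before the rule, 148 without cells holding markers of another type, 100 without cycling cells and 96 in cluster 8, and ranged from 154 to 611 when 1 library was left out (155 without DTA- replicate 1, 611 without DTA- replicate 2, 154 and 156 without DTA+ replicates 1 and 2). Without DTA+ replicate 2, 112 rose and 44 fell, and outside cluster 8 120 rose and 81 fell. With the replicate number as a block 563 genes were called and with crossed numbers 488. Across 11804 genes, deviations correlated at r = -0.107 between same-numbered libraries and at 0.107 between crossed ones. With 2 libraries per genotype these values are opposite by construction, so they cannot show whether the numbers mark pairs. DESeq2 called 176. The 255 genes kept their direction wherever tested, except 2 of 79 under thinning before the rule, 2 of 235 without cells holding markers of another type (*Hba-a1* at 0.38 and *Hba-a2* at 0.26) and 1 of 219 without cycling cells (*Cdk1*, 0.36). The 9 interaction calls became 32 with the likelihood ratio test, 69 without the filter, 0 with at least 4 required genes, 2 after thinning, and 25 to 96 with 1 library left out.

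Of the rule genes, 2 were called, 1 with DESeq2, 0 after thinning and 0 to 2 with 1 library left out. Some genes that were not called changed sign. *Dkk1* was at 0.0076 with the likelihood ratio test, 0.010 with DESeq2, 0.087 with the block and 0.22 after thinning, *Msx2* at -0.044 with the block, and *Osr1* at 0.18 and *Gfra2* at -0.41 after thinning. With 1 library left out, the log2 fold change ranged from -0.58 to 0.45 for *Msx2*, -0.11 to 0.37 for *Htr3b*, -0.28 to 0.00871 for *Osr1*, -0.46 to 0.80 for *Dkk1*, -0.28 to 0.49 for *Tfap2c*, -0.48 to 0.019 for *Col13a1*, -0.39 to 0.40 for *Fgf9*, -0.057 to 0.31 for *Adgrl3* and -1.20 to 0.15 for *Crym*. The mean share of members was 3.45% in DTA- and 3.90% in DTA+ with at least 4 required genes, 1.09 and 2.10% after thinning, and 5.99 and 6.71% with at most 1 gene of the second list. It ranged from 5.51 to 10.6% and from 7.43 to 10.7% with 1 library left out. The causes were not tested, and depth limits genes of few UMIs. Alternatives on choice of cells were in part chosen after seeing the data.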
